A study of Mus musculus with 15 samples.

Results

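Tnfaip2 encodes M-Sec, a cytosolic protein related in sequence to the exocyst subunit Sec6. It is described here with 6 genes of the Ral and exocyst machinery that M-Sec is known to work with, namely the Ral GTPase genes Rala and Ralb and the exocyst subunit genes Exoc2 (Sec5), Exoc3 (Sec6), Exoc5 (Sec10) and Exoc7 (Exo70). The 7 genes were chosen by name, and each was measured by 1 probe set, among 19938 genes measured in all. The arrays hold RNA of small-intestinal epithelium from wild-type BALB/c mice 10 weeks of age, detached with 30 mM EDTA for 10 min. Control mice received no agent, and the other mice received a fusion of GST with RANKL by intraperitoneal injection for 1, 2, 3 or 4 days. Each of the 5 groups has 3 arrays, and no group received GST alone, so RANKL cannot be told apart from GST or from the injection.

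The exocyst is a protein complex that tethers secretory vesicles to the plasma membrane before they fuse. The small GTPases RalA and RalB, when loaded with GTP, bind exocyst subunits and so place the complex where membrane is added. M-Sec is known from cultured cells, where together with active RalA and the exocyst it drives the growth of membrane nanotubes, thin bridges between cells. In the gut its transcript is known as a marker of M cells, which take up particles from the gut lumen for lymphoid tissue and form in response to RANKL, the TNF-family ligand of the receptor RANK.

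The stretches of 250 bases just upstream of the RefSeq transcript starts of Tnfaip2 and of both Ral genes are printed because these genes make the contrast described further on, 1 that rose and 2 that were not called. Windows were found for all 7 genes in RefSeq sequence of build GRCm38.p6. That of Tnfaip2 lies at chr12:111442411-111442660 on the plus strand, that of Rala at chr13:17944218-17944467 on the minus strand and that of Ralb at chr1:119504783-119505032 on the minus strand. The RefSeq gene span of Tnfaip2 begins at 111442450, inside its window. Most of that window, with all its marked matches, thus lies within the gene span rather than upstream of it. Capitals mark matches, on either strand, to the motifs searched.
Tnfaip2: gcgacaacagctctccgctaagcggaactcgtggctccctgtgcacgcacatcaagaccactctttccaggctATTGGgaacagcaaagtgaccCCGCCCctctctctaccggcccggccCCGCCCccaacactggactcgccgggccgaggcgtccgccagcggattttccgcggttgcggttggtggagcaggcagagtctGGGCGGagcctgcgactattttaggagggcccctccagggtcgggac
Rala: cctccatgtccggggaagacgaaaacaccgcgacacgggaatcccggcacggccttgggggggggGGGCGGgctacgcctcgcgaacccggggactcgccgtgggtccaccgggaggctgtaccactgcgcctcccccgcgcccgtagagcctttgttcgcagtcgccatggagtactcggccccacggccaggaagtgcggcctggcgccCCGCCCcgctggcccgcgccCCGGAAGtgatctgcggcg
Ralb: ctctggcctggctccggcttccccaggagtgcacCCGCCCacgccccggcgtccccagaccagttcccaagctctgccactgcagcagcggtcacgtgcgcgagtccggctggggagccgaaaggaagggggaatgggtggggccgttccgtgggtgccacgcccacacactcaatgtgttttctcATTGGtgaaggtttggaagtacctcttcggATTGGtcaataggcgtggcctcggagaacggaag

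In the Tnfaip2 window the GC box GGGCGG, the site bound by Sp1-family factors, had 3 matches and the CCAAT box had 1. The Rala window had 2 GC boxes and 1 ETS motif, CCGGAAG, at positions -19 to -13 from the transcript start. The Ralb window had 1 GC box and 2 CCAAT boxes. Over 32807 windows of the same length in the table, 32.7% held the GC box, 33.8% CCAAT and 6.91% CCGGAAG. The kappaB consensus, bound by NF-kB dimers and present in 3.9% of windows, had no match in any of the printed windows, nor did the AP-1 motif TGANTCA (6.75%), the PU box GAGGAA (23.3%), which is read by Spi-family factors, or TATAAA (12.4%). The PU box and CCGGAAG share the letters GGAA, but the letters before these differ, so the same GGAA cannot match both. An absent match says only that these letters are not in this stretch. The Tnfaip2 window held 21 CpG dinucleotides, those of Rala and Ralb 32 and 18, and the median over all windows was 6.

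Array medians of the deposited intensity lay between 147 and 167. RANKL day 1 replicate 2 stood apart, with the highest median and an interquartile range of its deposited log2 values of 1.95. The next narrowest range was 2.26, on control replicate 1, and the others ran from 2.28 to 2.55. Values below are log2 intensities after quantile normalization, and called genes are those with a limma adjusted p below 0.05 (Benjamini-Hochberg over all 19938 genes). Genes of the Y chromosome read 4.88 to 5.50, and Xist was at 11.93 or above throughout, so the Y readings show the background of those probe sets. The lowest reading among the 7 genes was 6.59, and the lowest among the 6 partners of Tnfaip2 was 7.80. Epithelial markers were bright on all arrays, with Epcam, a surface protein of epithelial cells, at 11.63 or more and Vil1, which encodes the microvillus protein villin, at 12.33 or more.

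**Figure D1:**
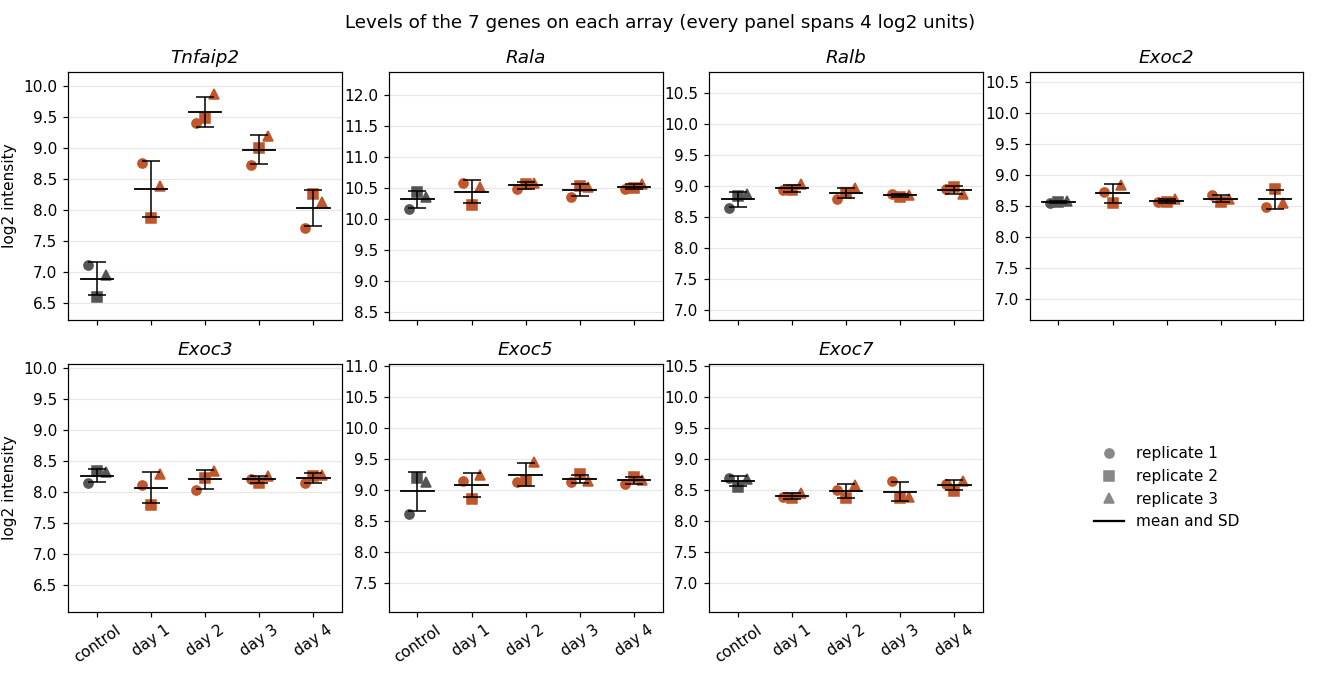
Log2 intensity of each gene on each of the 15 arrays, by group. Symbols give the replicate number, horizontal bars the mean and whiskers the SD of 3 arrays, and every panel spans the same range. Tnfaip2 lies between 6.59 and 7.11 in controls and between 9.41 and 9.86 on RANKL day 2, while the other panels stay nearly level.

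Tnfaip2 rose on every RANKL day and its level was highest on day 2. In controls it read 7.11, 6.59 and 6.95. On day 1 it read 8.76, 7.86 and 8.39, on day 2 9.41, 9.48 and 9.86, on day 3 8.72, 9.01 and 9.19, and on day 4 7.71, 8.25 and 8.13. All 12 RANKL arrays lay above all 3 control arrays, the day 2 arrays lay above those of every other group, and the ranges of days 1 and 3 and of days 1 and 4 overlapped. As deposited, the intensity was 97.7 to 141 in controls and 678 to 970 on day 2. The control values lay below the medians of the control arrays, 150 to 153. How near they lie to the background of this probe set was not tested.

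The group mean of Tnfaip2 was 6.89 ± 0.27 (SD, n = 3 arrays) in controls, 8.34 ± 0.45 on day 1, 9.58 ± 0.25 on day 2, 8.97 ± 0.24 on day 3 and 8.03 ± 0.29 on day 4. The increase over control on day 1 was 2.74-fold (95% interval 1.97 to 3.81; limma adjusted p = 0.00186). On day 2 it was 6.48-fold (4.66 to 9.01; adjusted p = 8.35e-06), on day 3 4.24-fold (3.04 to 5.89; adjusted p = 0.000134) and on day 4 2.21-fold (1.59 to 3.07; adjusted p = 0.0255). Ranked by the size of the rise among all genes tested, Tnfaip2 stood at place 38 on day 1, 9 on day 2, 16 on day 3 and 51 on day 4. The 4 comparisons share the control arrays. Over all 4 days together the moderated F test gave an adjusted p of 6.93e-05, and 3.6% of all genes were called by that test.

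RANKL day 1 replicate 2, the array that stood apart, gave the lowest Tnfaip2 reading of its group, and without it the day 1 log2 rise was 1.72 against 1.45. The calls of days 1, 2 and 3 held without each array in turn. The call of day 4 was lost when RANKL day 4 replicate 2 (adjusted p = 0.141) or replicate 3 (0.0944) was left out, when control replicate 2 (0.140) or replicate 3 (0.0687) was left out, and with an ordinary t (0.108). Its limma adjusted p ran from 0.00637 to 0.141 over all 26 alternatives. The log2 rise on that day stayed between 1.00 and 1.30 over the array removals.

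Between RANKL days, Tnfaip2 was higher on day 2 than on day 1 by 1.24 ± 0.22 on the log2 scale (SE; limma adjusted p = 0.0427), with 0.201% of all genes called and 10% without overlap in that comparison. That call was lost in 13 of 26 alternatives, among them the removal of RANKL day 1 replicate 2, after which the difference was 1.01 (adjusted p = 0.111). From day 2 to day 4 Tnfaip2 fell by 1.55 ± 0.22 (adjusted p = 0.00481), a call that held under all 26 alternatives. That comparison and those of days 3 and 4 with day 1 were added after the data were seen. Day 4 against day 2 had 0.722% of all genes called and 23.1% without overlap. In order of level the groups ran control, day 4, day 1, day 3 and day 2. Neighbours among the RANKL days did not pass the test. The differences were -0.31 ± 0.22 for day 4 against day 1 (adjusted p = 0.513; 1.32% of all genes called), 0.63 ± 0.22 for day 3 against day 1 (adjusted p = 0.302; 0.351% called) and -0.61 ± 0.22 for day 3 against day 2 (adjusted p = 0.977; 0% called, 14% without overlap). The step from day 3 to day 4, -0.94 ± 0.22, was not called either (adjusted p = 0.223; 0.015% called), although no array of day 4 reached those of day 3, as for 13.4% of all genes, and it was called with array weights (0.0138).

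Marker genes of M cells also rose, but their means did not all peak on day 2 as that of Tnfaip2 did. The list of 7 such markers leaves out Tnfaip2 and was chosen with earlier results of these data known, so its counts are a description. Of the 7, 6 rose on day 1, 7 on day 2, 6 on day 3 and 5 on day 4. Over all genes, 3.94%, 2.57%, 2.96% and 0.908% were called on these days, in either direction. The summed linear intensity of the list was 2100 to 2364 in controls, 8072 to 10098 on day 1, 11374 to 12653 on day 2, 7996 to 12493 on day 3 and 4963 to 7294 on day 4. Anxa5 and Spib, the brightest of the list on day 2 (means 12.10 and 11.31), weigh most in that day's sum. Spib, an Ets-family factor on which M cell maturation depends, had its mean at 11.22 on day 1. Gp2, the uptake receptor of mature M cells, read 6.02 on day 1 and was highest on day 3, at 10.99. The means of Spib, Ccl9, Anxa5 and Sox8 were highest on day 2. Those of Marcksl1 and Tnfrsf11a were highest on day 1, at 10.66 and 10.33, against 10.13 and 10.21 on day 2. Whether more cells of a type or more RNA per cell lies behind a rise cannot be told apart in such bulk samples.

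Macrophages and endothelial cells are also known to express Tnfaip2, and their markers were read on the same arrays. Of 10 myeloid markers 1 was lower on day 1, 1 was higher on day 2 and none was called on days 3 and 4. The one that was higher was Itgam, a leukocyte integrin, by 0.99 on the log2 scale (adjusted p = 0.00418), and the one that was lower was Csf1r, the receptor of macrophage colony-stimulating factor, which fell by 0.36 (adjusted p = 0.0458). The summed intensity of the myeloid list was 2786 to 3130 in controls, 2431 to 2860 on day 1, 2650 to 2928 on day 2, 2850 to 3395 on day 3 and 2827 to 3033 on day 4. Lyz2, the brightest of the list, weighs most in this sum, which says little of dimmer markers such as Itgam. The mean of Lyz2 was 10.49 in controls and 10.08 on day 2, a log2 difference of -0.40 that was not called. None of 8 endothelial markers was called on any day, and their sum was 859 to 912 in controls, 821 to 956 on day 1, 848 to 882 on day 2, 859 to 884 on day 3 and 871 to 936 on day 4. Adgre1, a classic surface marker of tissue macrophages, had a mean of 5.98 in controls and 5.85 on day 2. Its lowest array read 5.68, above the 4.88 to 5.50 of the Y chromosome genes. How near Adgre1 lies to the background of its own probe set was not tested. Adgre1 was the dimmest myeloid marker in controls, where the means of the others ran from 6.49 (Fcgr3) to 10.49 (Lyz2). Of 7 T lymphocyte markers, 4 measured markers of B lymphocytes and plasma cells, and 8 stromal markers, none was called on any day. Of the epithelial lists, 5 general epithelial markers and 4 goblet markers had no call. Among 8 enterocyte markers 1 rose on day 2, among 4 stem cell markers 1 rose on day 1, and among 4 Paneth markers 1 fell on day 2. The enterocyte markers Lct and Fabp1 varied widely over the arrays, from 8.07 to 12.03 and from 8.30 to 11.81. Their day 4 differences from control, 1.03 and 1.40 on the log2 scale, were not called. Of 4 tuft markers 2 rose on day 2, 2 on day 3 and 4 on day 4, and of 5 enteroendocrine markers 1 rose on day 3 and 4 on day 4. The part of these cells in the values of Tnfaip2 was not tested.

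None of the 6 partners of Tnfaip2 was called on any RANKL day. Of the 7 genes, 1 was thus called on each day, always Tnfaip2, where 3.94% of all genes were called on day 1, 2.57% on day 2, 2.96% on day 3 and 0.908% on day 4. Of the 24 partner comparisons with control, 3 had an unadjusted limma p under 0.05, and the smallest adjusted p was 0.177. Such values were common: by p among all 19938 genes, Exoc7 stood at place 1780 and Ralb at 2156 on day 1. On day 2 Rala stood at place 1884. The 95% intervals of these 24 differences, taken one at a time, lay within 0.736-fold to 1.49-fold of control, outer bounds set by Exoc3 on day 1 and Exoc5 on day 2. Those of Rala on day 2, Ralb on day 1 and Exoc7 on day 1 did not include 1, and the other intervals did.

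**Figure D2:**
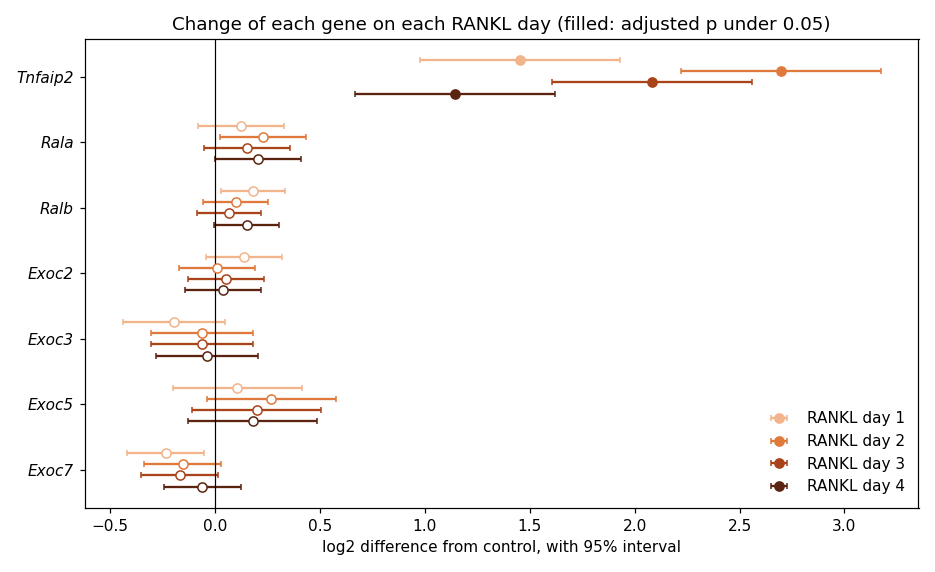
Log2 difference from control for each gene on each RANKL day, with 95% intervals from limma (3 arrays per group). Filled points passed an adjusted p of 0.05. Tnfaip2 lies between 1.14 and 2.70, and the points of the 6 partners lie between -0.24 and 0.27.

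Rala, the Ral GTPase that M-Sec is known to work with in nanotube growth, read 10.16, 10.43 and 10.35 in controls. On day 1 it read 10.57, 10.23 and 10.52, on day 2 10.48, 10.57 and 10.59, on day 3 10.35, 10.54 and 10.51, and on day 4 10.48, 10.51 and 10.57. The arrays of days 2 and 4 lay above all controls, while those of days 1 and 3 overlapped them. The largest difference was on day 2, 1.17-fold (95% interval 1.02 to 1.35; limma adjusted p = 0.337), and on day 4 it was 1.15-fold (0.999 to 1.33; adjusted p = 0.526). The lowest Rala readings came from control replicate 1 and RANKL day 1 replicate 2, which had the narrowest interquartile ranges of the 15 arrays, and what this contributes to the values was not tested. Without control replicate 1 the day 2 log2 difference was 0.15 against 0.23.

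Ralb, whose product shares most effectors with RalA, read 8.66, 8.84 and 8.88 in controls, 8.94, 8.94 and 9.04 on day 1 and 8.80, 8.90 and 8.97 on day 2. It read 8.88, 8.83 and 8.86 on day 3 and 8.96, 8.99 and 8.87 on day 4. The 3 arrays of day 1 lay above all controls and those of the other days overlapped them. The day 1 difference was 1.13-fold (95% interval 1.02 to 1.26; limma adjusted p = 0.227), and on days 2 to 4 it was 1.05-fold to 1.11-fold.

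Among the exocyst subunits, Exoc2, the Sec5 subunit that binds active Ral directly, kept within 8.49 to 8.83 on all 15 arrays. Its controls read 8.55, 8.56 and 8.58, the narrowest control spread of the 7 genes (SD 0.015). On day 1 it read 8.72, 8.54 and 8.83, so that 2 of 3 arrays lay above the controls, for a difference of 1.10-fold (95% interval 0.969 to 1.25; limma adjusted p = 0.537). On the later days it stood at 1.01-fold to 1.04-fold of control.

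Exoc3, the Sec6 subunit to which M-Sec is related, read 8.15, 8.34 and 8.32 in controls and 8.12, 7.80 and 8.29 on day 1. Its day 1 mean of 8.07 ± 0.25 (SD) was the lowest of the 5 groups, and RANKL day 1 replicate 2 gave its lowest reading. The day 1 log2 difference was -0.20 ± 0.11 (SE; limma adjusted p = 0.482), and -0.06 without that array. On days 2, 3 and 4 the differences were -0.06, -0.06 and -0.04.

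Exoc5, the Sec10 subunit, had the widest spread of the partners, from 8.62 to 9.47. Controls read 8.62, 9.19 and 9.14, and the RANKL arrays ran from 8.87 to 9.47. The groups overlapped on every day. The largest difference was on day 2, 0.27 ± 0.14 on the log2 scale (limma adjusted p = 0.522), and it was 0.08 without control replicate 1, whose reading was the lowest of the 15. Its lows thus lay on the same pair of arrays as those of Rala.

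Exoc7, the Exo70 subunit that binds phosphoinositides at the plasma membrane, was the partner with the smallest adjusted p. It read 8.69, 8.54 and 8.67 in controls, 8.38, 8.37 and 8.45 on day 1 and 8.49, 8.37 and 8.58 on day 2. It read 8.64, 8.37 and 8.39 on day 3 and 8.59, 8.48 and 8.65 on day 4. All 3 day 1 arrays lay below all controls, at 0.850-fold of control (95% interval 0.748 to 0.965; limma adjusted p = 0.177), and the other days overlapped the controls. The day 4 difference was -0.06 and turned to 0.05 with median centring and 0.02 with the values as deposited.

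Counting genes whose arrays did not overlap the controls, in either direction, gave 3 of 7 on day 1 (Tnfaip2, Ralb and Exoc7), 2 on day 2 (Tnfaip2 and Rala), 1 on day 3 (Tnfaip2) and 2 on day 4 (Tnfaip2 and Rala). Over all genes the share was 14.6% on day 1, 17.5% on day 2, 22.2% on day 3 and 18.2% on day 4. The range of the 5 group means was 2.70 log2 units for Tnfaip2 and 0.14 to 0.27 for the partners, which put the partners at percentiles 29.2 to 66.6 of all genes. The median log2 difference of the 6 partners was 0.11 on day 1, 0.05 on day 2, 0.06 on day 3 and 0.09 on day 4, against -0.01, -0.02, -0.01 and 0.01 over all genes.

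As a description over the 15 arrays, which share groups and array quality, Rala and Exoc5 varied together (Pearson r = 0.845, and 0.812 after each group's mean was removed). Ralb and Exoc5 had an r of 0.604 over the arrays and 0.783 with group means removed. Over the arrays Exoc3 had 0.452 with Rala, 0.551 with Exoc5, 0.291 with Exoc2 and 0.124 with Ralb. With group means removed these were 0.760, 0.759, 0.705 and 0.644. Exoc7 had -0.367 with Rala and -0.196 with Exoc5 over the arrays, and -0.304 and -0.048 with group means removed. The median absolute r with all other genes, over the arrays, was 0.328 for Rala, 0.293 for Exoc3 and 0.295 for Exoc5. With Tnfaip2 the values over the arrays were 0.605 for Rala, 0.507 for Exoc5, 0.252 for Ralb, 0.181 for Exoc2, -0.032 for Exoc3 and -0.481 for Exoc7. With group means removed they were 0.464 for Rala, 0.238 for Exoc5, 0.0022 for Ralb, 0.531 for Exoc2, 0.511 for Exoc3 and 0.011 for Exoc7. In rank of likeness to Tnfaip2 over all arrays, Rala stood at place 701 and Exoc5 at 1334 of all other genes.

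The 6 named genes whose pattern over the 15 arrays was most like that of Tnfaip2 were Fabp5 (r = 0.978), Ccl9 (0.960), Ccl20 (0.959), Rab32 (0.957), C4bp (0.955) and Slc2a6 (0.951), against a median absolute r of 0.242 over all genes. Their roles differ. Fabp5 encodes a fatty acid binding protein, Ccl9 and Ccl20 encode chemokines, Rab32 a small GTPase of lysosome-related organelles, C4bp an inhibitor of complement, and Slc2a6 a sugar transporter. With group means removed, the r with Tnfaip2 was 0.844 for Rab32, 0.770 for C4bp, 0.750 for Fabp5, 0.586 for Slc2a6, 0.578 for Ccl9 and 0.559 for Ccl20. These genes were chosen by their likeness to Tnfaip2 on the same arrays, so their levels by group are a description. Rab32 read 7.16 to 7.45 in controls and 8.31 to 8.89 on day 2, a difference of means of 1.26 on the log2 scale, and on day 4 the difference from control was 0.55. C4bp read 6.72 to 6.81 in controls and 8.83 to 8.99 on day 2, a difference of 2.12. Among the 6, the difference of day 2 from control ran from 1.26 for Rab32 to 3.36 for Ccl20.

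**Figure D3:**
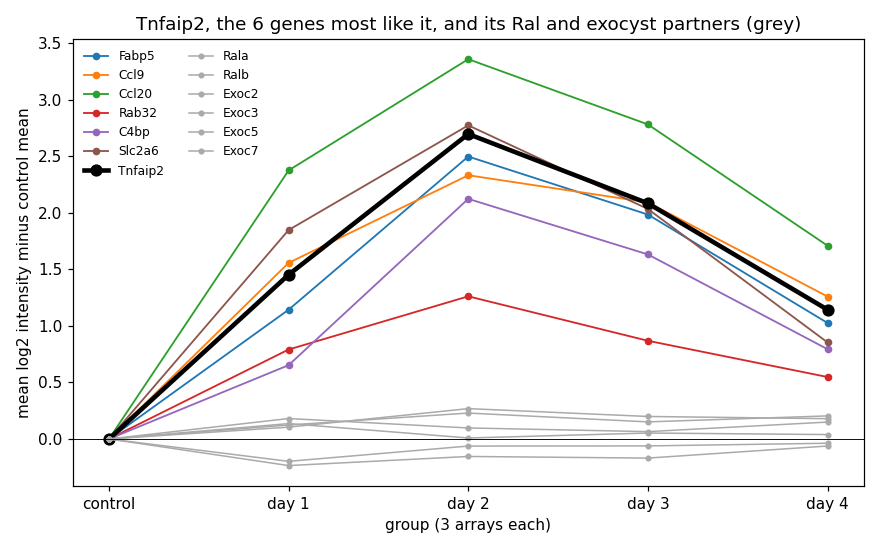
Mean log2 intensity of each gene minus its control mean, by group (3 arrays each). The black line is Tnfaip2, coloured lines are the 6 genes with the highest correlation with it, and grey lines are its 6 Ral and exocyst partners. The coloured lines peak on day 2 with differences of 1.26 to 3.36, and the grey lines stay between -0.24 and 0.27.

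The other genes of the pathway were read as 8 lists of 52 genes, of which 49 were measured. Of the 49, 2 rose on day 1, 2 rose on day 2, 1 fell on day 3 and none was called on day 4, where the shares of all genes called were those given above. Their median log2 differences were 0.01, -0.02, -0.00 and 0.01 on the 4 days, close to those of all genes.

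The exocyst and Ral lists held few changes. The 5 other exocyst subunits, Exoc1, Exoc4, Exoc6, Exoc6b and Exoc8, had no call on any day, with log2 differences from -0.11 to 0.30, and Exoc8 is, beside Exoc2, the subunit that active Ral is known to bind. None of 5 measured Ral activators (Ralgds, Rgl1, Rgl2, Rgl3 and Ralgps2) was called, with differences from -0.34 to 0.12, and none of 3 Ral inactivators (Ralgapa1, Ralgapa2 and Ralgapb), with differences from -0.16 to 0.16. Of 4 measured further Ral effectors, Flna alone was called, on day 1. Flna encodes filamin A, an actin crosslinker that binds RalA in filopodium formation. It read 8.07, 7.43 and 7.96 in controls and 8.69, 8.70 and 8.62 on day 1, without overlap, a rise of 0.85 ± 0.14 on the log2 scale (1.81-fold; limma adjusted p = 0.0032). Fitting only control and day 1 gave an adjusted p of 0.0646, and on days 2 to 4 its differences were 0.42, 0.40 and 0.30, not called.

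Among the 3 other genes related to Exoc3 and Tnfaip2 in sequence, Exoc3l and Exoc3l2 had no call and Exoc3l4 fell on day 3. Exoc3l4 read 10.43, 10.37 and 10.12 in controls and 9.51, 9.54 and 9.78 on day 3, without overlap, and fell by 0.70 ± 0.12 on the log2 scale (1.62-fold lower; limma adjusted p = 0.00724). On day 2, when Tnfaip2 was highest, Exoc3l4 stood at 10.35, 10.24 and 10.29, within the control range. Its differences on days 1, 2 and 4 were -0.46 (adjusted p = 0.0502), -0.02 (0.985) and -0.44 (0.157), and the day 1 value was called in 10 of 26 alternatives.

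Of 9 small GTPases and helpers that direct the exocyst, Rab8b alone was called. It encodes a GTPase of exocytic and ciliary traffic. It read 8.23, 8.49 and 8.37 in controls and 8.91, 8.99 and 9.55 on day 2, without overlap, a rise of 0.78 ± 0.13 on the log2 scale (1.72-fold; limma adjusted p = 0.0048), with 0.0603 when only control and day 2 were fitted. On days 1, 3 and 4 the differences were 0.36 (limma adjusted p = 0.174), 0.52 (0.0521) and 0.48 (0.152), and on each of these days all arrays of Rab8b lay above all controls. The day 3 value was called in 6 of 26 alternatives, and those of days 1 and 4 in 1 each, without RANKL day 2 replicate 3. Its close relative Rab8a differed by 0.05 to 0.19 and was not called. None of 13 measured genes of filopodia and other protrusions was called on any day, with differences from -0.34 to 0.32, among them Myo10, a filopodial myosin, Lst1, whose human product takes part in nanotube formation with M-Sec in cultured cells, and Ezr, which encodes the microvillus linker ezrin.

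Of 7 other genes named for induction by TNF alpha, Tnfaip3 rose on days 1 and 2 and the rest were not called. Tnfaip3 encodes A20, an inhibitor of NF-kB signalling. It read 8.75, 9.08 and 9.04 in controls and 9.55, 10.05 and 10.07 on day 1, a rise of 0.93 ± 0.14 on the log2 scale (1.91-fold; limma adjusted p = 0.00155). On day 2 it read 9.77, 9.48 and 9.81, a rise of 0.73 (limma adjusted p = 0.011). Leaving out RANKL day 2 replicate 1 (0.0583) or control replicate 1 (0.0566) ended that call. The mean of Tnfaip3 was highest on day 1, although its arrays of days 1 and 2 overlapped. That of Tnfaip2 was highest on day 2.

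**Figure D4:**
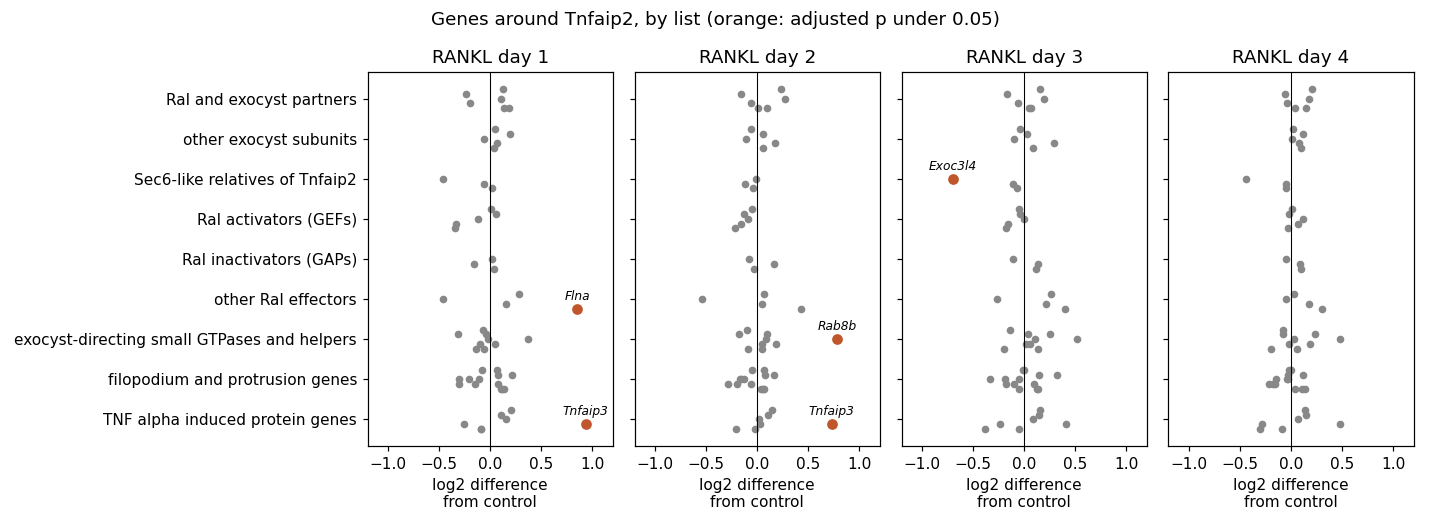
Log2 difference from control of each measured gene in the lists around Tnfaip2, 1 panel per RANKL day and 1 row per list, with the 6 Ral and exocyst partners in the top row. Orange points passed an adjusted p of 0.05. The orange points are Flna and Tnfaip3 on day 1, Rab8b and Tnfaip3 on day 2 and Exoc3l4 on day 3, and day 4 has none.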

How the data were processed

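The deposited values are linear intensities that the authors summarised over 28853 probe sets on 15 arrays, and the target was biotinylated with a whole-transcript labeling kit per the labels. The submitters' processing notes name build mm9. How they were summarised and normalized is not given in the sources used here. Deposited intensities were put on a log2 scale without an offset and quantile normalized, since array medians ran from 7.20 to 7.38. Of the probe sets, 21789 carried 1 gene symbol, and the brightest per gene was kept (19938 genes, no filter on dim genes). Groups follow the sample titles.

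limma 3.58.1 (R 4.3.3) fitted 1 mean per group to all arrays (10 residual and 3.49 prior degrees of freedom), two-sided. Comparisons of days 3 and 4 with day 1 and of day 4 with day 2 were added after the data were seen. The method was tested on simulated data. The genes and lists were chosen with earlier results of these data known. Always named are the 7 genes, then called list genes and the 6 genes most correlated with Tnfaip2, without unnamed clones. Cell type marker lists covered 13 types. The alternatives were values as deposited, median centring, adding 16 before the log, dropping the dimmest 40% of genes, other probe set rules, other priors, array weights, a replicate block, ordinary t, fits of 2 groups and leaving out each array. The number of arrays limits the precision. Whether replicate arrays hold RNA of different mice is not stated, so the p-values reflect only the variation among these samples, which may be technical.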

Additional observations from a re-analysis of the deposited data

Results flagged for a closer look

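The difference of Tnfaip2 from control was not the same on all days of GST-RANKL injection in 2 comparisons between days, each tested in the same limma fit. Tnfaip2 was higher on day 2 than on day 1 by 1.24 on the log2 scale (adjusted p = 0.0427), and it was lower on day 4 than on day 2, with a difference of -1.55 (adjusted p = 0.00481). The first call did not hold without RANKL day 1 replicate 2 and under 12 other alternatives. The second, in a comparison added after the data were seen, held under all 26.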

How the results depend on the processing

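Each of the 7 genes has 1 probe set, so the rules for several probe sets left their values unchanged. In 26 alternatives, 15 of them the removal of 1 array, no partner of Tnfaip2 was called on any RANKL day (624 values), and the calls of Tnfaip2 on days 1, 2 and 3 held. Its log2 rise without 1 array ran from 1.24 to 1.72 on day 1, 2.55 to 2.82 on day 2, 1.94 to 2.20 on day 3 and 1.00 to 1.30 on day 4. On day 4 the rise of 1.14 was not called with an ordinary t, which left 0 of the 7 genes called, and without 1 array the count was 0 to 1. Day 2 against day 1 was not called with median centring (1.28), the values as deposited (1.23), an ordinary t (1.24) or the 2 groups alone (1.24), each leaving 0 genes called, and without 1 array it ran from 1.01 to 1.46 (0 to 1 called). Day 4 against day 3 was called with array weights (-1.03), 1 of the 7 genes.

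Some partner differences, none of them called, changed sign. With median centring these were Rala on day 1 (-0.00466), Exoc3 on day 3 (0.0151) and day 4 (0.0615) and Exoc7 on day 4 (0.0525). With the values as deposited they were Exoc3 (0.0245) and Exoc7 (0.0155) on day 4, and with array weights Exoc2 on day 2 (-0.00391). Without 1 array the ranges that crossed 0 were -0.00755 to 0.0175 (Exoc2, day 2), -0.0461 to 0.10 (Exoc2, day 4), -0.13 to 0.0191 (Exoc3, day 2), -0.10 to 0.00730 (Exoc3, day 4), -0.0791 to 0.22 (Exoc5, day 1), -0.00405 to 0.28 (Exoc5, day 4) and -0.00121 to 0.11 (Ralb, day 3). Exoc3l4 on day 2 ran from -0.11 to 0.0445, and was 0.0322 with array weights. Causes were not tested.

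Calls over the 49 listed genes on day 1 were 5 with array weights, 1 in the 2 groups alone, 4 with the replicate block and 2 to 6 without 1 array, against 2. On day 2 they were 4 with array weights, 1 in the 2 groups alone and 1 to 2 without 1 array, against 2. On day 3 they were 4 with array weights, 2 in the 2 groups alone, 2 without the dimmest 40% of genes and 1 to 5 without 1 array, against 1, and on day 4 0 to 1, against 0. Counts over all genes were 269 to 1052 on day 1 (785), 283 to 844 on day 2 (513), 236 to 1188 on day 3 (590) and 95 to 336 on day 4 (181). The replicate numbers share no stated source. Of 30 pairs of arrays with the same number, 19 had deviations correlated over 0.1. The share among pairs with unlike numbers was not computed. Among the arrays of other groups, most of which bear another number, 12 of 15 arrays correlated best with one of their own number. The main fit did not take the numbers into account. With the replicate block the Tnfaip2 rises were as before (adjusted p = 0.0023 on day 1 and 0.0267 on day 4).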
